A study of Mus musculus with 4 samples.

Results

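The cell cycle genes described here are the probe sets whose single platform gene symbol belongs to the cyclins A to H, the numbered cyclin-dependent kinases, the Cdkn1 and Cdkn2 inhibitors, the numbered Cdc genes, Mcm2 to Mcm7, or the E2f, Bub, Aurk and Plk families, together with Incenp, Mki67, Top2a, Pcna and Lin9. Cdkn1a, Cdkn1c and Cdc42 were left out. The choice was made by name, with earlier results of these data known, and it gave 98 probe sets for 74 genes, out of 10855 probe sets with 1 symbol and 12488 in all. Total RNA had been taken from hippocampal CA1 tissue. The mice were young C57BL/6J males, for which the labels name no mutation, and they were handled by the experimenter and given nothing else. There were 4 single-channel arrays, 1 each at 1, 2, 4 and 6 hr, where the hour is the time after the last shock of separate, shocked mice for which these handled mice served as controls. Age in weeks and the number of mice per array are not given in the sources used here.

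A dividing cell passes through a gap, DNA synthesis, a second gap and mitosis, and each step is driven by kinases that work only when bound to a cyclin. E2F transcription factors switch on the genes of DNA synthesis, MuvB complexes with Lin9 help to control those of mitosis, and inhibitors of the Cdkn families hold the kinases back. CA1 pyramidal neurons have left the cycle for good, while glia, vascular cells and precursor cells can still divide. Several relatives of cell cycle kinases have other work in neurons, above all Cdk5, which phosphorylates cytoskeletal and synaptic proteins, and Plk2, which neurons induce after synaptic activity. The members were therefore set out as 31 proliferative genes (44 probe sets), whose transcripts accompany division, 10 neuronally expressed genes (12 probe sets), and 33 other genes (42 probe sets) that are broadly expressed or only share the name.

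The promoters of the members were compared first, since they do not depend on any array value. RefSeq promoter windows of the GRCm38.p6 build, 250 bases before to 50 bases after a gene's start, were found for 61 of the 74 genes. A match to an E2F site (TTTCCCGC, TTTGGCGC, TTTCGCGC or TTTGCCGC on either strand) lay in 9 of 24 proliferative genes, 37.5%. It lay in 0 of 8 neuronally expressed genes and in 1 of 29 other genes, Cdkn2a, beside 2.6% of all 27025 genes in the promoter table. The 9 proliferative genes were Cdc25a, Cdc6, Cdk1, Cdk2, E2f3, Mcm3, Mcm5, Mcm6 and Mcm7, so that 4 of them encode subunits of the Mcm helicase, which unwinds DNA at replication origins. A core of the cell cycle homology region, CHR, the element that MuvB complexes bind (TTTGAA or TTCGAA on either strand), lay in 14 of 24 proliferative genes (58.3%), in 1 of 8 neuronally expressed genes (12.5%) and in 3 of 29 other genes (10.3%), against 21.7% of all genes. The NF-Y box (CCAAT on either strand) lay in 19 of 24 proliferative genes (79.2%), 5 of 8 neuronally expressed genes (62.5%) and 14 of 29 other genes (48.3%), against 41.1% of all genes. An E2F site and an NF-Y box together lay in 8 of 24 proliferative genes, 33.3%, and in 1.12% of all genes. These matches describe letters in a fixed window. A match is not a shown binding site.

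**Figure D1:**
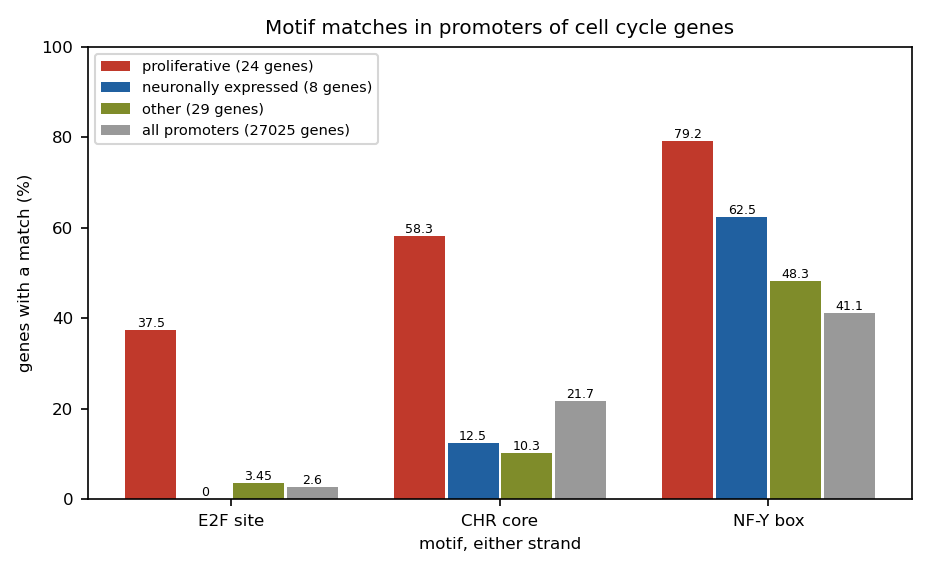
Share of genes, in percent, with at least 1 match to an E2F site, a CHR core or an NF-Y box in a RefSeq promoter window, for the 24 proliferative, 8 neuronally expressed and 29 other genes found in the table and for all 27025 genes. The E2F bar stands at 37.5% for proliferative genes, 0 for neuronally expressed genes and 2.6% for all genes.

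The windows of 4 Mcm genes and Cdk1 are shown because they hold the E2F matches, and those of Plk2 and Cdkn2d because they are neuronally expressed genes with none. Each runs 5′ to 3′ on the gene's strand, and capitals mark the E2F and NF-Y matches of either strand. Overlapping matches run together, as in Mcm5 and Mcm6, where E2F matches of opposite strands overlap, and in the Mcm7 window, where an E2F match overlaps an NF-Y match. A second Mcm7 window, for another start, holds no E2F match.
Mcm3 (chr1:20820263-20820562, minus strand): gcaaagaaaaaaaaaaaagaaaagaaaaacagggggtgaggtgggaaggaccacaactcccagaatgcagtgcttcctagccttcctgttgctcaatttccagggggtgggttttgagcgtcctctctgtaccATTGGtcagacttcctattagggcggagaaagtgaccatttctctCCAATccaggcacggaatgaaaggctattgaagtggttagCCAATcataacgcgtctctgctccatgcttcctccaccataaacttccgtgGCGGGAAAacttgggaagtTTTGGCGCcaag
Mcm5 (chr8:75109259-75109558, plus strand): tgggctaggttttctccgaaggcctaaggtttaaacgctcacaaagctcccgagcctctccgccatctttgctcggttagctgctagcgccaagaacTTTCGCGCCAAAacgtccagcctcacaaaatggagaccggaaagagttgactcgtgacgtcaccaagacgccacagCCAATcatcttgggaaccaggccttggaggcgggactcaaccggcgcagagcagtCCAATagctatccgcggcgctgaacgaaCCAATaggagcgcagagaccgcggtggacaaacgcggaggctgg
Mcm6 (chr1:128359656-128359955, minus strand): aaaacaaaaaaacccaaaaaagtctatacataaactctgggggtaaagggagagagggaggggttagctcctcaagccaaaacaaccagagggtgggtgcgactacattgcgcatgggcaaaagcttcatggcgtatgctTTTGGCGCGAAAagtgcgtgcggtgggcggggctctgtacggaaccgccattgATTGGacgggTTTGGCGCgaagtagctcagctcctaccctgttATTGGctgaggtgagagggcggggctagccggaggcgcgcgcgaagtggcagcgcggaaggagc
Mcm7 (chr5:138171834-138172133, minus strand): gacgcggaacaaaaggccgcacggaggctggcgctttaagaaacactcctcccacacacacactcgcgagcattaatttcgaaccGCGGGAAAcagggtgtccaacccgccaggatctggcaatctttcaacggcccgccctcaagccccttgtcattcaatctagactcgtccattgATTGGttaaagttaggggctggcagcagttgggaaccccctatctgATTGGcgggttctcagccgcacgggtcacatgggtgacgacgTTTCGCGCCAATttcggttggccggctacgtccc
Cdk1 (chr10:69352863-69353162, minus strand): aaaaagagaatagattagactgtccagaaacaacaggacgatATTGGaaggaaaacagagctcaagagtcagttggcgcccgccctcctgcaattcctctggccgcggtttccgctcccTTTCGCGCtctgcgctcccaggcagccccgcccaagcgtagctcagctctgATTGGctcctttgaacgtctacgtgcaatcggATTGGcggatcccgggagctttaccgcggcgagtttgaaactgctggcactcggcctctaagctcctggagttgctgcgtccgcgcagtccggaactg
Plk2 (chr13:110394794-110395093, plus strand): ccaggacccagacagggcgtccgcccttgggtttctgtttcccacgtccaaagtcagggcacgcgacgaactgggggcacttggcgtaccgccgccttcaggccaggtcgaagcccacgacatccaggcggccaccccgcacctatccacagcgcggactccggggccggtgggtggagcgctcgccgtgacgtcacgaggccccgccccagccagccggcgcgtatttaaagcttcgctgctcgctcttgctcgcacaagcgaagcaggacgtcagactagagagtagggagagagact
Cdkn2d (chr9:21291160-21291459, minus strand): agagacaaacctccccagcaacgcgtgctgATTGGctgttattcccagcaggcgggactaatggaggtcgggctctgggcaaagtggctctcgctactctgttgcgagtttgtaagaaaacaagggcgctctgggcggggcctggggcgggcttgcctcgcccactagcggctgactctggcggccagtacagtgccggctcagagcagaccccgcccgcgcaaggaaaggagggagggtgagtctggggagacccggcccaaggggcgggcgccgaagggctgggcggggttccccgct

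The arrays held 1 deposited intensity per probe set on a linear scale. Intensities of different probe sets cannot be set against each other, because probes differ in how strongly they bind, so levels are described by their place relative to a floor of 54.6, the 25th percentile of all values. The deposited data used here hold no detection calls, and values under the floor have no order among themselves. Over the arrays at 1, 2, 4 and 6 hr, 23.5%, 21.4%, 18.4% and 25.5% of the member values were under the floor, and 23.4%, 28.3%, 23.5% and 24.8% of all values. The neuronal marker Snap25 read 17370.1 to 20903 over the arrays, and 3 of 4 measured neuronal markers stayed above the floor throughout. The exception, Camk2a, read 153.8, 137.3, 161.4 and 53.2 through its brighter probe set, under the floor at 6 hr. Its other probe set was under the floor on every array. Summed over each gene's brightest probe set, 4 neuronal markers ranged from 18955 to 22843, and Snap25 made up most of this sum. The sums were 19715 to 21391 for 5 astrocyte markers and 16948 to 23592 for 6 oligodendrocyte markers. They were 3900.3 to 4616 for 7 microglial markers and 1368 to 1695 for 7 endothelial and mural markers. Sums of different cell types cannot be set against each other. Of 7 markers of immature neurons and progenitors 6 were above the floor on all arrays and Eomes was under it on all, with sums of 2959, 2779.5, 2129 and 2057 at 1, 2, 4 and 6 hr. In this list Sox2 read 1434, 1477, 1082 and 943. Through the brightest probe set Sox11 read 668.5, 420, 317 and 355, and Nes read 314, 179, 176 and 169. Neurod1 read 211, 250, 253 and 156. Dcx, of immature neurons, read 184, 276, 204 and 285, and Dlx2 read 142, 149, 83.1 and 144. Of these 6 markers, Dcx and Dlx2 alone were lower at 1 and 4 hr than at 2 and 6 hr. The only oligodendrocyte precursor marker measured, Pdgfra, read 781, 1162, 1060.0 and 1026 through its brightest probe set. Blood markers summed to 2206 to 4108, highest at 1 hr, and 4 choroid plexus and ependymal markers to 1135, 935, 4154 and 1211 at 1, 2, 4 and 6 hr. Of these 4, Ttr read 140.3, 140.3, 3217 and 196, whereas Foxj1, Folr1 and Kl did not have their highest value at 4 hr. The 18S ribosomal RNA control probe set read 1383, 1150.0, 3325 and 3381. The ratio of the 3′ to the 5′ control probe set was 4.84, 7.56, 6.25 and 4.89 for Gapdh. For Actb the same ratio was 3.44, 3.20, 3.24 and 2.99, so it was not raised at 2 hr. The part of these readings in the values below was not tested, and in whole tissue fewer cells of a type and less RNA per cell cannot be told apart.

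Many proliferative transcripts lay at or near the floor. Of the 44 proliferative probe sets 22 were above it on all 4 arrays (50%), 14 on some and 8 on none. The share above it on none was thus 18.2%, beside 11.5% of all probe sets that are not array controls. Of the 12 neuronally expressed probe sets 9 were above it on all arrays (75%), and of the 42 others 33 were (78.6%), beside 61.5% of all 12422 probe sets that are not array controls. Counted by gene through the brightest probe set, 20 of 31 proliferative genes, 8 of 10 neuronally expressed genes and 28 of 33 other genes were above the floor on every array. The count by gene was not made over all genes, and no test of these shares was made.

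**Figure D2:**
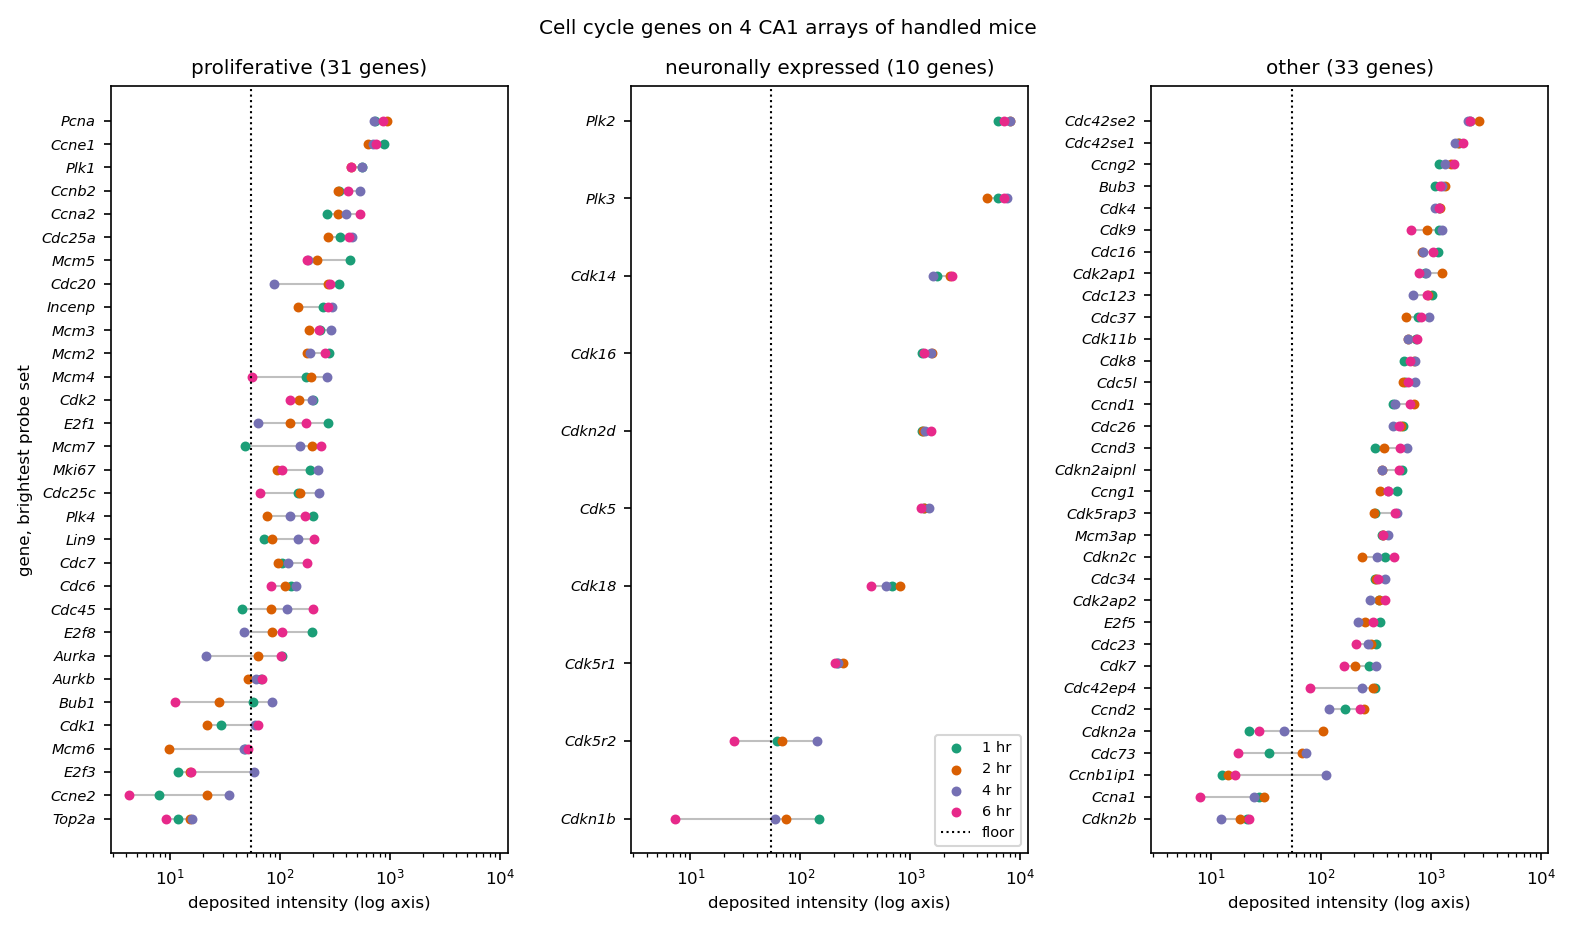
Deposited intensity (log axis) of each of the 74 genes through its brightest probe set, with 1 coloured point per array (1, 2, 4 and 6 hr), a grey line from the lowest to the highest array, and the floor of 54.6 as a dotted line, in panels for the proliferative, neuronally expressed and other genes. Top2a, Ccne2 and Mcm6 have all 4 points under the floor. Plk2 and Plk3, the latter through a probe set with the suffix _r_at, have all points above it, between 4924 and 8028.

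Some transcripts that accompany division were under the floor. Through the brightest probe set, 3 of 31 proliferative genes were under it on all arrays and 20 were above it on all. Top2a, the topoisomerase that untangles chromosomes in mitosis, read 9.2 to 15.8 and was under the floor on all 4 arrays. Ccne2, a cyclin of entry into DNA synthesis, read 4.2 to 34.2 and was likewise under it throughout. Mcm6, whose promoter window holds 3 E2F matches, read 47.8, 9.7, 47.2 and 51.2 at 1, 2, 4 and 6 hr, all under the floor. These 3 were the proliferative genes with no value above the floor through any probe set. Mki67, the gene of the Ki-67 antigen used to stain dividing cells, read 5.0, 32.7, 7.0 and 8.3 through its plain probe set, also all under the floor. Its other probe set, one with the suffix _r_at that Affymetrix gave to sets built under relaxed selection rules, read 188, 92.9, 219 and 103, above the floor on every array. The Mki67 probe sets thus disagree on whether the transcript was above the floor.

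Transcripts of mitotic kinases and their controls were mostly low or split between probe sets. Cdk1, the kinase of mitosis, read 28.9, 21.4, 59.1 and 62.6 and passed the floor at 4 and 6 hr only. Aurka, a kinase of spindle poles, read 104, 62.2, 21.2 and 101, with the 4 hr array under the floor. Aurkb, the kinase that works with Incenp at the centromere, read 67.2, 51.4, 60.9 and 67.7, within a narrow band around the floor. All 3 probe sets of Bub1, a kinase of the spindle checkpoint, had a mean too low to be tested. Of these 3, 2 were under the floor on every array, and the third read 56.3, 27.8, 83.8 and 11.1. Plk1, a kinase of mitotic entry, differed between its probe sets, with 558, 445, 551 and 443 through 1 probe set, 341, 252, 252 and 97 through the second and 21.3, 53.4, 50.3 and 36.4, all under the floor, through the third. Plk4, which starts centriole duplication, read 201, 75.7, 124 and 167, lowest at 2 hr. Cdc20, which activates the anaphase-promoting complex, read 345, 271, 87.5 and 284, so the 4 hr value lay 3.10-fold below the nearest other array.

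Among cyclins of the proliferative class Ccne1, Ccnb2 and Ccna2 passed the filter, which itself selects for level, and were above the floor throughout. Ccne2, under the floor on all arrays, did not pass it. Ccne1, a cyclin of entry into DNA synthesis, read 881, 635, 693 and 740.0 and averaged 737 ± 105 (SD over the 4 arrays, n = 4). Ccnb2, a mitotic cyclin, read 339, 333, 533 and 415, highest at 4 hr. Ccna2, the cyclin of DNA synthesis and early mitosis, read 264, 336, 394 and 526 in rising order of time. The highest of these values was 2.00-fold above the lowest for Ccna2, 1.60-fold for Ccnb2 and 1.39-fold for Ccne1. The phosphatase gene Cdc25a, which activates cyclin-dependent kinases, read 352, 272, 454 and 422 through one probe set and stayed under the floor on 3 of 4 arrays through the other (74.2, 15.5, 22 and 16.2). Cdc25c, its mitotic relative, read 145, 153, 227 and 66.1 through a probe set with the suffix _s_at, of shared probe selection. The plain Cdc25c probe set read 81.5, 43.9, 93.6 and 7.7. Both Cdc25c probe sets were highest at 4 hr and lowest at 6 hr. Cdk2, the partner of the E and A cyclins, read 198, 149, 195 and 122, while its other probe set was under the floor at 1 and 4 hr (9.6, 61.2, 19.5 and 71.2).

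Genes of DNA replication ranged from firmly above the floor to under it. Pcna, the sliding clamp of DNA polymerases, which also serves DNA repair, read 733, 941, 706 and 859 and averaged 809.7 ± 110.0 (SD, n = 4). Its SD was 0.19 log2 units, and most of the helicase subunits had a wider spread. Mcm2 read 279.6, 175, 188 and 256, above the floor throughout. Mcm3 read 231, 183, 291 and 225, also above it throughout, through a probe set with the suffix _s_at, of shared probe selection. The plain Mcm3 probe set read 21.1, 76.4, 133 and 53.1, under the floor at 1 and 6 hr. Mcm4 read 171, 191, 267 and 55, which put the 6 hr array 3.10-fold below the nearest other one. Mcm5 read 427, 215, 178 and 176, highest at 1 hr, and its other probe set, 239, 66.9, 109 and 70.6, was highest at 1 hr too. Mcm7 read 47.7, 193, 151 and 233 and was under the floor at 1 hr, where it lay at least 2.77-fold below the other arrays. The 6 helicase subunits thus did not share an order over the arrays: the highest array was 1 hr for Mcm2 and Mcm5, 4 hr for Mcm3 and Mcm4, and 6 hr for Mcm7, with Mcm6 under the floor. The loading factor Cdc6 read 127, 110.1, 140.3 and 82.9, and Cdc45, a partner of the helicase, read 45.2, 82.5, 115 and 198 in rising order. Neither Cdc6 nor Cdc45 passed the filter on mean level. Cdc7, the kinase that fires replication origins, passed it and read 104, 96.3, 118 and 175.

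The E2f transcription factors differed in level class. E2f1, an activator of DNA synthesis genes, was under it on all arrays through its plain probe set (15.7 to 39.7) and read 274, 124, 62.5 and 172 through another, whose suffix _f_at marks sets that may bind members of a gene family. E2f3, another activator, exceeded the floor only at 4 hr, with 58.4. The repressor E2f8 read 195, 84.7, 47 and 104 and 46.7, 22.3, 125 and 49.3 through its 2 probe sets, which were made from the same accession and had their highest array at 1 hr and 4 hr. The first E2f8 probe set has the suffix _f_at and the second _r_at. E2f5, a repressor counted among the other genes because resting cells express it, read 349, 254, 218 and 301, above the floor throughout.

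Neuronally expressed members were above the floor on every array for 8 of 10 genes, and most varied little. Cdk5, the neuronal kinase, read 1325, 1333, 1472 and 1244 and averaged 1343 ± 94.5 (SD, n = 4). Its activator Cdk5r1 read 215, 241, 219 and 208, an SD of 0.09 log2 units, which was the smallest of this class. The second activator, Cdk5r2, read 61.6, 68.2, 141 and 24.8 and did not pass the filter. Plk2 read 6203, 8028, 8027 and 7077, lowest at 1 hr. Plk3, a relative involved in stress responses, read 6193, 4924, 7568 and 7057, lowest at 2 hr. The only Plk3 probe set has the suffix _r_at, of relaxed selection rules. The highest Plk2 value was 1.29-fold above the lowest, and the Plk3 values spanned 1.54-fold. Among the PCTAIRE and PFTAIRE kinases, brain-rich relatives of the cyclin-dependent kinases, Cdk16 read 1276, 1557, 1548 and 1334 and Cdk18 read 682, 809, 605 and 435, lowest at 6 hr. Cdk14 read 1754, 2285, 1606 and 2376 through one probe set and 203, 62.6, 139 and 154 through the other. The dimmer Cdk14 probe set was lowest at 2 hr, 2.22-fold below the nearest array, where the brighter one read 2285, its second highest value. Cdkn2d, an inhibitor that postmitotic neurons keep, read 1285, 1291, 1360.2 and 1538 in rising order within a 1.20-fold range. Cdkn1b, an inhibitor that holds cells out of the cycle, was under the floor on all arrays through one probe set (17.8 to 39.3). Its other probe set read 148, 73.5, 59.1 and 7.3. The place of every gene in this class rests on background knowledge, since whole tissue does not show which cells express it.

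Most of the other members were steady over the arrays. Cdk4, the kinase partner of the D cyclins, read 1194, 1208, 1095 and 1190.4 through its brighter probe set, the smallest spread of all tested members at an SD of 0.07 log2 units. Its dimmer probe set read 206, 129, 173 and 86.8, a 2.37-fold range. Among the D cyclins, which pass growth signals to Cdk4, Ccnd1 read 451, 705, 475 and 647 and, through its other probe set, 104, 233, 89.6 and 256. Both Ccnd1 probe sets had higher values at 2 and 6 hr than at 1 and 4 hr, and so did Ccnd2, the cyclin of neural precursors, with 165, 248, 119 and 229.5. Ccnd3 did not follow them and read 312, 375, 605 and 524. Ccng1 and Ccng2, atypical cyclins outside the core cycle, read 345 to 492 and 1199 to 1629. The inhibitor genes Cdkn2a, Cdkn2b and Cdkn2c differed in level class: Cdkn2b was under the floor on all arrays, Cdkn2a exceeded it only at 2 hr (104.6), and Cdkn2c read 386, 237, 325 and 464.

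Kinases of transcription and subunits of the anaphase-promoting complex, a ubiquitin ligase that neurons also use, lay above the floor. Cdk9, which releases paused RNA polymerase, read 1181, 927, 1255 and 667, lowest at 6 hr. Cdk7, which phosphorylates RNA polymerase and activates other Cdks, read 273, 205, 317 and 162, and Cdk8, of the Mediator complex, read 575, 709, 726 and 654. Cdk11b, a kinase linked to splicing, read 732, 628, 629 and 759 through its brightest probe set. Another of its 3 probe sets was under the floor at 4 hr (239, 171, 44.9 and 139), at least 2.55-fold below the other arrays, where the third read 185. The ligase subunits Cdc16, Cdc23 and Cdc26 read 832 to 1177, 209.8 to 317 and 456 to 559.9, and the second Cdc23 probe set read 31.7 to 59.1, around the floor. Bub3, a checkpoint protein, read 1089.5, 1362, 1279 and 1209, whereas its second probe set was under the floor on 3 arrays. The ubiquitin-conjugating enzyme gene Cdc34 read 311, 317, 386 and 331, and its second probe set read 87.5, 52.2, 66.6 and 46.9. Cdc5l, a splicing factor, read 564 to 721 and 128 to 196 through its 2 probe sets.

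Some members share only a name with the cycle. Cdc42se1 and Cdc42se2, small effectors of the GTPase Cdc42, read 1668 to 1949 and 2186 to 2751. Cdc42ep4, another Cdc42 effector, read 312, 298, 239.9 and 79.6, and its 6 hr value lay 3.01-fold below the nearest other array. Mcm3ap, a factor of messenger RNA export, read 359 to 410.0, an SD of 0.08 log2 units. Cdk2ap1, a Cdk2-associated protein, read 894, 1274, 911 and 784, highest at 2 hr. Cdk5rap3, first found as a protein bound to the Cdk5 activator, read 314, 302, 499 and 476 through one probe set and 242, 61.8, 368 and 212 through the other, and both were highest at 4 hr and lowest at 2 hr. Cdc37, a co-chaperone of kinases, read 592 to 963, and Cdc123, which helps to assemble a translation initiation factor, read 688 to 1036. Cdk2ap2 and Cdkn2aipnl read 283 to 384 and 362 to 554. Ccna1, a cyclin of the germ line, was under the floor throughout. Ccnb1ip1, a protein of meiotic recombination, was under it on 3 arrays and Cdc73, of the Paf1 transcription complex, on 2.

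Of the 98 probe sets 65 passed a filter on mean level (above the 40th percentile of mean log2 value, on the scale where values under the floor are raised to it), as did 7453 of all 12422, which is 60%. They were 22 of 44 proliferative, 9 of 12 neuronally expressed and 34 of 42 other probe sets. The spread over the 4 arrays was widest among the proliferative ones, with a median SD of 0.53 log2 units against 0.18 for the neuronally expressed, 0.26 for the other members and 0.29 for all tested probe sets. The highest array was at least 2-fold above the lowest for 12 of 22 proliferative probe sets, 1 of 9 neuronally expressed and 6 of 34 others, where 25.3% of all tested probe sets reached that size. Spread depends on level on these arrays. When the tested probe sets were divided by mean level into 4 bands of equal number, the dimmest band, with means of 114 to 229, had the widest spread, and in it the median SD was 0.74 for 13 proliferative probe sets and 0.53 for all 1864. In the second band it was 0.37 for 6 proliferative probe sets and 0.33 for all, and in the third 0.19 for 3 and 0.24 for all. No proliferative probe set lay in the brightest band, where 6 of the 9 neuronally expressed ones had a median SD of 0.16 against 0.19 for all. The wide spread of the proliferative class went together with low level, and with no filter its median SD was 0.33 over all 44 probe sets, many of them at the floor.

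**Figure D3:**
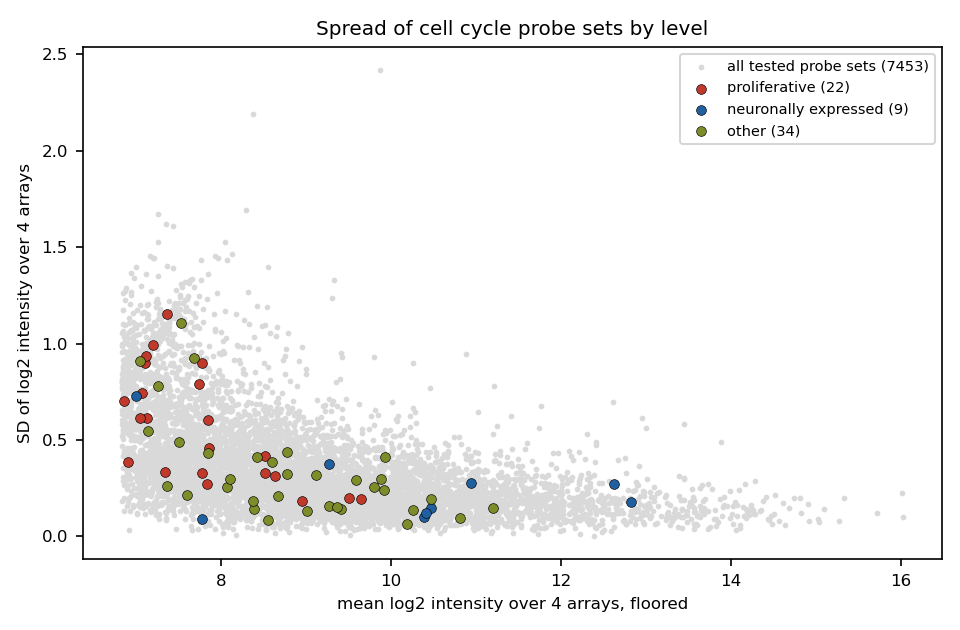
SD of log2 intensity over the 4 arrays against mean log2 intensity (values under the floor raised to it) for 7453 tested probe sets in grey, and for 22 proliferative, 9 neuronally expressed and 34 other probe sets in colour. Spread is larger at low level for all probe sets, and 13 of the 22 proliferative ones lie in the dimmest of 4 bands of level.

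To find single arrays that differed, a probe set was said to stand apart if its highest array exceeded the next by 2-fold or more (1 log2 unit), or its lowest fell short of the next by as much. This held for 10 of the 65 tested members, all of them below the other arrays and none above, beside 7.53% of all tested probe sets in either direction, 6.37% below and 1.36% above. With no filter on level 15 of 98 stood apart, 10 below and 5 above, beside 9.58% of all. Over all 12422 probe sets 672 then stood above and 533 below. The 5 members above were probe sets of Cdk5r2, Cdkn1b, Ccnb1ip1, E2f8 and Mcm5. None of these 5 had passed the filter, so the lack of members above holds for filtered probe sets only. The 10 comprised 6 of 22 proliferative, 1 of 9 neuronally expressed and 3 of 34 other probe sets. At 6 hr these were Incenp, Mcm4, Plk1, Cdc25c and Cdc42ep4, at 4 hr Cdc20 and Cdk11b, at 2 hr Cdk14 and Cdk5rap3, and at 1 hr Mcm7. All 10 lay in the dimmest of the 4 bands of level, where 22.9% of all probe sets stood apart and 10 of 23 members did. With the floor raised to the 40th percentile 2 of 65 members stood apart, beside 3.69% of all. When the 2 hr array was left out, so that only 3 arrays were compared, 10 proliferative probe sets stood apart in place of 6. The share of all tested probe sets standing apart was then 9.88% in place of 7.53%.

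No member passed the test of a straight line over the hours. With limma's p-values adjusted by the Benjamini-Hochberg method over all 7453 probe sets, 0 of 65 tested members passed, as did 0% of all probe sets, and the smallest adjusted p among them was 0.883. At an unadjusted p under 0.05 there were 5 members, 2 with a rising and 3 with a falling slope, beside 5.13% of all tested probe sets in either direction, 2.87% rising and 2.25% falling. Without moderation of the variance, by ordinary least squares, 0 members passed and 4 had such an unadjusted p. Slopes were above 0 for 36 members and below 0 for 29, and their median was 0.012 (log2 units per hr). Over all tested probe sets 3792 were above 0 and 3661 below, and the median was 0.0015. Proliferative probe sets had 11 slopes in each direction, and neuronally expressed ones had 6 above 0 and 3 below. Strictly rising order was held by 3 members and strictly falling order by 4, beside 4% and 3.37% of all. Each array holds CA1 tissue of another hour, and the number of mice per array is not given. With 1 array per hour these p-values reflect only how single arrays scatter about a line. In that scatter, differences between mice and technical noise cannot be told apart.

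The 3 members of smallest unadjusted p with a rising slope were Lin9, Ccna2 and Cdc7, and all 3 belong to the proliferative class. Lin9, the MuvB subunit, read 72, 84.3, 146 and 205, which gave 0.31 ± 0.06 log2 units per hr as slope and SE (adjusted p = 0.883 by limma). For Ccna2 the slope was 0.19 ± 0.06 (SE, adjusted p = 0.947 by limma), and for Cdc7 it was 0.16 ± 0.07 (SE, adjusted p = 0.973 by limma). Each has a single probe set here. In the falling direction stood Incenp, Cdc42ep4 and Plk1, of which Incenp and Plk1 are proliferative too. Incenp, the scaffold of the chromosomal passenger complex, read 366, 203, 183 and 41.6 and ended under the floor, with a floored slope of -0.49 ± 0.10 (SE, adjusted p = 0.883 by limma). Its second probe set read 246, 146, 297 and 272, a slope of 0.10 ± 0.10 (SE), and was lowest at 2 hr. For Cdc42ep4 the slope was -0.38 ± 0.10 and for the second Plk1 probe set -0.32 ± 0.09 (SE, adjusted p = 0.883 by limma for both). The brightest Plk1 probe set, which has the suffix _f_at, by contrast read 443 at 6 hr and 445 at 2 hr. None of these slopes passed after adjustment. Without the 6 hr array the slope was -0.29 for the first Incenp probe set, -0.13 for Cdc42ep4 and -0.12 for Plk1. That of the second Incenp probe set lay between 0.034 and 0.22 with any 1 array left out.

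**Figure D4:**
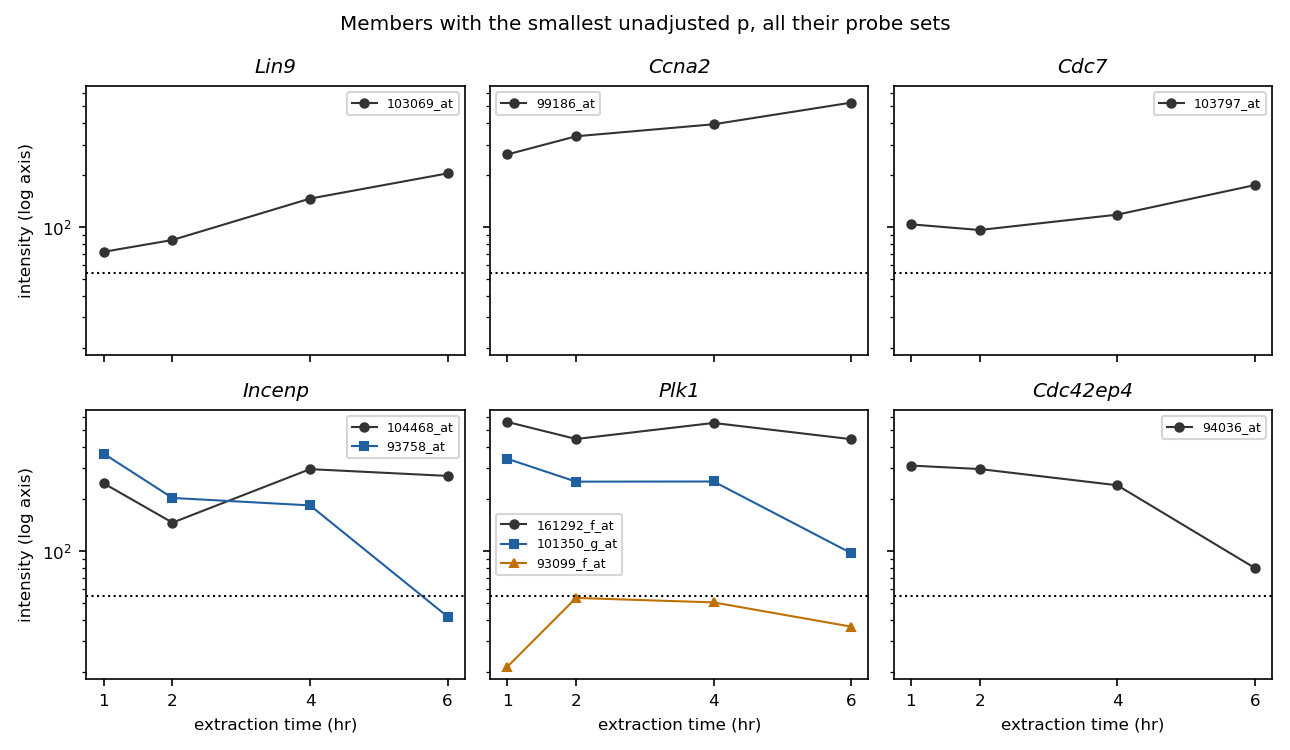
Intensity (log axis) against extraction time in hr for the 6 members of smallest unadjusted p, 3 rising (Lin9, Ccna2, Cdc7) and 3 falling (Incenp, Plk1, Cdc42ep4), with every probe set of the gene as a line, 1 point per array and the floor of 54.6 as a dotted line. One Incenp probe set ends under the floor at 6 hr while the other reads 272, and the 3 Plk1 probe sets lie at separate levels.

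Of the 74 genes 21 had 2 or 3 probe sets. In 8 of the 21 at least 2 probe sets were tested. Their slopes had the same sign in 6 genes (Ccnd1, Cdc5l, Cdk14, Cdk4, Cdk5rap3 and Plk1) and opposite signs in 2 (Cdk11b and Incenp). All probe sets shared their highest array in 4 genes, Cdc25c, Cdk5rap3, Mcm3 and Mcm5. The second Mcm3 probe set read 21.1, 76.4, 133 and 53.1, like the first highest at 4 hr. Of the 98 member probe sets 83 had the plain suffix and 15 another one, which marks shared, family or relaxed probe selection.

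**Figure D5:**
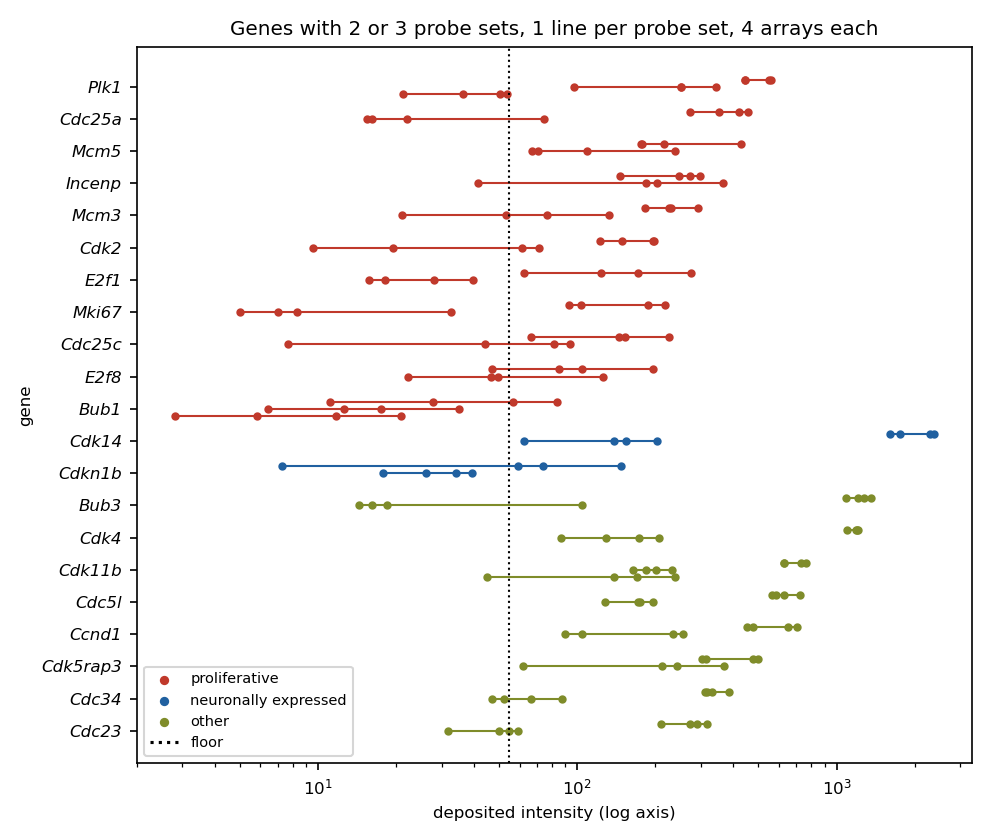
Deposited intensity (log axis) of every probe set of the 21 genes with 2 or 3 probe sets, with 1 line per probe set from its lowest to its highest array and 4 points for the arrays, coloured by class, and the floor of 54.6 as a dotted line. For Mki67, E2f1 and Plk1, 1 probe set lies wholly under the floor and another wholly above it.

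Over the 65 tested members the arrays ranked levels alike, with a Pearson correlation of log2 values between 0.859 (6 against 1 hr) and 0.916 (2 against 1 hr) for the 6 pairs of arrays, and between 0.920 and 0.936 over all tested probe sets. These are correlations across probe sets that share their probes on every array, and they describe agreement only.

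Other genes of replication and mitosis, from a list of 87 that the naming rule does not hold, had 93 probe sets for 73 genes. Of these probe sets 42 were above the floor on all arrays (45.2%) and 11 were under it on all (11.8%). Over all probe sets the shares were 61.5% and 11.5%. Of the 93 probe sets 47 were tested. The test passed 0 of the 47, in either direction, and 2 had an unadjusted p under 0.05. Their slopes were above 0 in 33 and below 0 in 14, their median was 0.06 (log2 units per hr), and 22 of the 47 were lowest at 1 hr and 22 highest at 4 hr. Of all 7453 tested probe sets 1811 were lowest at 1 hr and 1977 highest at 4 hr. The 18S reading was also higher at 4 and 6 hr than at 1 and 2 hr, and its part in these slopes was not tested. Smc3, a cohesin subunit, read 115, 183, 226 and 278, a slope of 0.23 ± 0.07 (SE, adjusted p = 0.890 by limma), and Chek2, a checkpoint kinase, read 49.3, 200.0, 306 and 264. Rbl2, a pocket protein that represses cell cycle genes in resting cells, read 203, 222, 77.5 and 41.9, ending under the floor, with a slope of -0.43 ± 0.08 (SE, adjusted p = 0.883 by limma). A Pold1 probe set with the suffix _r_at, for the catalytic subunit of a replicative polymerase, read 273, 156, 287 and 109. The plain Pold1 probe set read 300, 61, 558 and 54, ending under the floor. The 4 of highest mean were Anapc5, Pttg1, Rad21 and Anapc4. Anapc5, a subunit of the anaphase-promoting complex, read 2549, 3064, 4199.6 and 3781. Pttg1, the securin, read 1651, 1957, 1952 and 2133 through a probe set with the suffix _s_at. The plain Pttg1 probe set read 30.8, 6.9, 51.1 and 33.8, all under the floor. Rad21, a cohesin subunit, read 1668, 1629.7, 1196 and 1318, and Anapc4 read 847, 857, 895 and 936.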

How the data were processed

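Deposited intensity values of 4 single-channel arrays, 1 per hour, were used. No label names the software with which the authors summarised and scaled them. The deposited intensities are linear, above 0, and share a 2% trimmed mean of 500.3, so they had been scaled to a common level, a reading from the values. A change shared by most genes thus cannot be seen, and the number of arrays limits precision. Symbols came from the platform annotation: 10855 probe sets had 1 symbol, 396 several and 1237 none. All 74 member genes matched RefSeq (GRCm38.p6) by Entrez identifier. The 66 array controls were not tested.

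Values under 54.6 were raised to that floor, log2 values were taken, and a line over hours was fitted with limma 3.58.1 in R 4.3.3 (lmFit, eBayes, 2 residual degrees of freedom) to the 7453 probe sets above the 40th percentile of mean level. Two-sided p-values were Benjamini-Hochberg adjusted at 0.05. The fit was tested on simulated data. Motifs and figures used Python 3.11.15. Members, classes and lists were chosen with earlier results of these data known. Named were all tested neuronally expressed genes, in the other classes the 8 of highest mean and the 4 of largest and of smallest SD, the smallest p in each direction, members standing apart and genes with several probe sets. Others were named after their values were seen, to account for every member. Alternatives changed the normalization, floor, filter, arrays, time scale and variance model.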

Additional observations from a re-analysis of the deposited data

How the results depend on the processing

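The count of members with a straight-line trend was 0 under every alternative tried: other normalizations (quantile, common median), other floors (10th, 40th percentile), other filters (none, 60th percentile), any 1 array dropped, other time codes (log2 hours, the late against the early pair), 2 other variance models and, chosen after seeing the data, plain-suffix probe sets alone. The smallest adjusted p of a member ran from 0.613 with a common median to 0.996 without the 1 hr array, and 3 to 9 members had an unadjusted p under 0.05. The counts over all probe sets and over the other replication and mitosis list were also 0 throughout, with 229 to 781 and 1 to 6 at an unadjusted p under 0.05. The count of members standing apart was 2 with the floor at the 40th percentile, beside 3.69% of all tested probe sets. It was 0 with the filter at the 60th percentile, which leaves 36 members, beside 1.65% of all. At 1.5 log2 units it was 5, beside 2.28% of all. Leaving out 1 array gave 9 to 13, beside 8.94% to 9.88% of all. The median SD of proliferative probe sets was 0.33 with no filter and 0.26 with the filter at the 60th percentile, which leaves 6 of them, and 0.37 to 0.50 with 1 array left out. That of neuronally expressed probe sets ran from 0.13 to 0.23 over all alternatives. The named slopes kept their sign in 137 of 138 alternatives. The exception was the Pold1 probe set with the suffix _r_at. Its slope in log2 units per hr was 0.084 without the 6 hr array against -0.17 with all arrays. With 1 array left out it ran from -0.24 to 0.084. The cause was not tested. No paired analysis was possible because each hour has 1 array. Dim probe sets limit what can be seen, since no detection calls were used.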
